A study of Mus musculus with 2 samples.

Results

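Podocytes are the epithelial cells that wrap the capillaries of the kidney glomerulus, and the genes described here are 8 genes widely used to mark them or to study their filter: Nphs1, Wt1, Podxl, Synpo, Cd2ap, Tcf21, Vegfa and Ptpro. They were taken by name from the array's own gene annotation, leaving out control spots, and all 8 were found, on 9 of the 20868 distinct probes. Synpo had 2 probes and each other gene had 1. All 8 genes passed the filter on dim spots and were tested among 18357 genes.

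Whole kidney RNA of mice labelled Glis2 KO (called mutant below) and Glis2 WT (wild type) was compared on 2 two-colour Agilent arrays, each of which held both RNAs. Glis2 is a zinc finger transcription factor of the Krüppel-like class, and its loss in mice and humans leads to nephronophthisis, a scarring and cystic kidney disease. Replicate 1 carried the mutant RNA in the dye Cy3 and replicate 2 carried it in Cy5. Per the series description the mice were of postnatal day 25 or 60, RNA of 3 kidneys was pooled and came from 2 independent experiments, and arrays were run in duplicate. The labels give neither the age behind either array, nor the strain or the altered part of the gene, nor whether the 2 arrays are separate experiments or duplicates of the same pools. The limma p-values below therefore rest only on spread between these 2 arrays, which may be technical. For each gene, limma weighs the spread of its own 2 values with a spread estimated over all genes tested. The scanner software's p-values come from an error model within 1 array and do not measure spread between arrays. The Glis2 probe itself gave log2 ratios of 0.32 and 0.16 (mean 0.24 ± 0.11, moderated SE, n = 2, adjusted p = 0.328 in limma), so it was not lower in the RNA labelled mutant. Whether that probe lies in the altered part is not known, so it does not check the labels. In each of the 4 channels the typical spot was 4.06 to 5.18 times as bright as its local background (median), and precision is limited by having only 2 arrays.

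Podocytes send out interlocking foot processes, and the gaps between them are bridged by the slit diaphragm, a protein sheet that holds back plasma proteins. Nephrin, the product of Nphs1, spans that gap. Cd2ap and synaptopodin tie it to the actin of the foot process, while podocalyxin, from Podxl, coats the free cell surface with negative charge, and Ptpro is a receptor phosphatase on that surface. The transcription factors Wt1 and Tcf21 act in podocyte development, and Vegfa is the growth factor by which podocytes maintain the glomerular endothelium. Several of these genes are also used by other cells. Tcf21 marks stromal fibroblasts, Vegfa is made by tubules, Podxl by endothelium, and Cd2ap by many cells. In whole kidney RNA, a change in the number of cells of a type and a change in RNA per cell cannot be told apart.

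Of the 8 genes, 1 rose and 1 fell in the RNA labelled mutant. Tcf21 was 2.11-fold higher and Vegfa was 1.44-fold lower, and the other 6 did not pass the test, which was limma's moderated test at an adjusted p under 0.05 over all 18357 genes. Over all genes the same rule called 3.79% higher and 1.21% lower. The 6 genes that were not called had mean log2 ratios (mutant over wild type) between 0.12 for Podxl and 0.48 for Synpo. The median over the 8 was 0.25, with 0.24 and 0.28 on the 2 arrays, against 0.01 over all genes tested. Ratios were above 0 on both arrays for 6 of the 8 genes and below 0 on both for 1, against 31.9% and 28.9% of all genes.

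**Figure D1:**
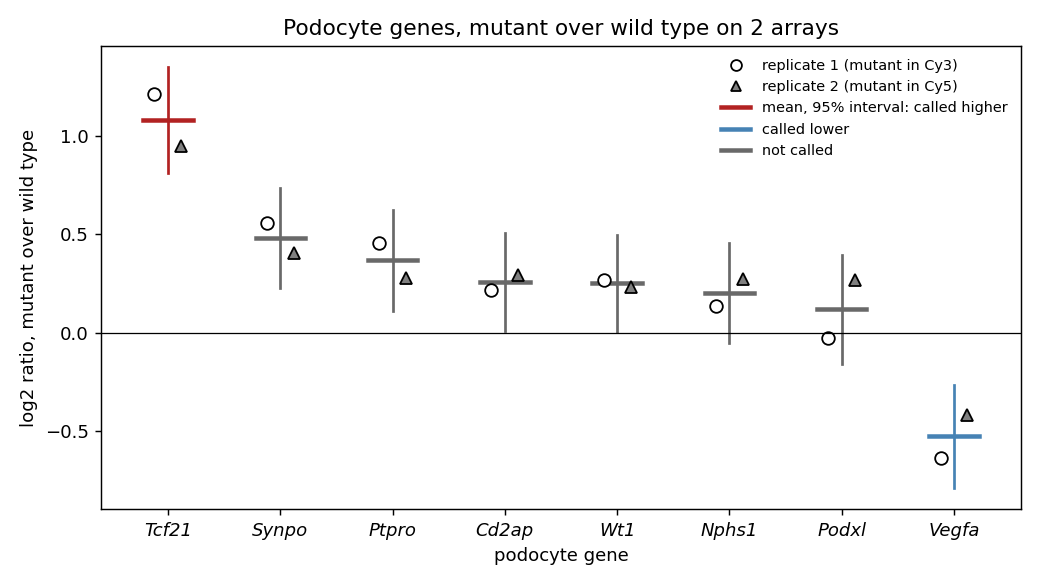
Log2 ratio of mutant over wild type (vertical axis) of the 8 podocyte genes (horizontal axis), with a circle for replicate 1, a triangle for replicate 2, a thick bar for the mean and a vertical line for limma's 95% interval. Tcf21 lies at 1.21 and 0.95 and Vegfa at -0.63 and -0.42, while the circle of Podxl lies just below 0 at -0.028.

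The promoters of Tcf21 and Vegfa are shown because these are the genes that were called, in opposite directions. RefSeq's table for the mouse assembly GRCm38.p6 held 5 of the 8 genes (Nphs1, Cd2ap, Tcf21, Vegfa and Ptpro), and the 250 bases before each gene's start were searched on both strands. Each line runs 5′ to 3′ on the gene's own strand, in lower case, with matches to the searched motifs in capitals. The Tcf21 window is chr10:22820144-22820393, minus strand, and the Vegfa window, the more upstream of its starts in the table, is chr17:46032378-46032627, minus strand.
Tcf21: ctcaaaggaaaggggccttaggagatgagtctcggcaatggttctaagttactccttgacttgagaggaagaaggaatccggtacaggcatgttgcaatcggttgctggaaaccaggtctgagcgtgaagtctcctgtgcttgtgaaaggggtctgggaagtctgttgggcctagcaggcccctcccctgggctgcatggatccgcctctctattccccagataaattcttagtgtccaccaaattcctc
Vegfa: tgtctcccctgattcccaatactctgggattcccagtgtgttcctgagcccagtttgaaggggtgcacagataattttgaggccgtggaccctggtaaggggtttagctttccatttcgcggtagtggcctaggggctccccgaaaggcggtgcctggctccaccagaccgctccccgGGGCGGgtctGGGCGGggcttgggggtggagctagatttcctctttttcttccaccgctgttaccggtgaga
The motifs were the GLI site TGGGTGGTC, the WT1 and EGR site GCGGGGGCG, the GC box GGGCGG, the E-box CANNTG and the hypoxia core ACGTG. Vegfa held 2 GC boxes, which did not overlap, and a GC box was in 32.7% of the 32851 promoter windows in the table. Tcf21 held none of these letters in its window, nor did Nphs1. E-boxes, in 66.2% of all windows, occurred 2 times in Cd2ap and 3 times in Ptpro. The GLI letters were in 0.225% of all windows, the WT1 and EGR letters in 2.57% and the hypoxia core in 16.6%, and in none of the 5 searched here. A match is only a description of the letters.

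The transcription factors are given first. Tcf21 is a basic helix-loop-helix factor that is needed for podocyte and stromal development. On replicate 1 its net signal (mean spot signal less local background, before normalization) was 871 in the mutant channel and 312 in the wild type channel. On replicate 2 these were 827 and 439. Both mutant values lay above both wild type values although the dyes were swapped. After loess normalization the log2 ratios were 1.21 and 0.95, with a mean of 1.08 ± 0.12 (moderated SE, n = 2, adjusted p = 0.00238 in limma) and a 95% interval from 0.81 to 1.35. Tcf21 was the 141st highest of all genes by mean log2 ratio. The scanner software's own p-value within the array, as the authors deposited it, was 4.28e-12 on replicate 1 and 3.15e-06 on replicate 2. The call was lost with the log ratios of the scanner software, where the mean was 1.21 and limma's adjusted p was 0.147. With those ratios limma called no gene of any kind, against 2521 genes at an unadjusted p under 0.05.

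Wt1 is the zinc finger factor that podocytes keep expressing in the adult. Its net signals were 488 in the mutant and 351 in the wild type channel on replicate 1, and 516 and 471 on replicate 2. The mutant channel was the brighter one on both arrays. Its log2 ratios of 0.27 and 0.23 were the closest pair among the 8 genes, with a mean of 0.25 ± 0.11 (moderated SE, n = 2). limma gave it an adjusted p of 0.294 and a 95% interval from 0.0046 to 0.50, so Wt1 was not called.

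Vegfa is the ligand that podocytes and tubules send to the neighbouring endothelium. Its net signal was 517 in the mutant and 749 in the wild type channel on replicate 1, and 522 and 760 on replicate 2. Both mutant values lay below both wild type values, and Vegfa was the only gene of the 8 with a negative mean. The normalized log2 ratios were -0.63 and -0.42, with a mean of -0.53 ± 0.11 (moderated SE, n = 2, adjusted p = 0.0413 in limma) and a 95% interval from -0.79 to -0.26. By mean log2 ratio it was the 201st lowest of all genes. The scanner software's p-value, as deposited by the authors, was 6.28e-05 on replicate 1 and 0.0319 on replicate 2. The adjusted p lay close to the threshold. Vegfa was called in 6 of the 12 alternative settings that gave a test and not in the other 6, with adjusted p from 3.5e-08 to 0.252. Its direction was the same in all 14 alternatives, several of which cannot change the ratio of a gene with 1 probe.

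**Figure D2:**
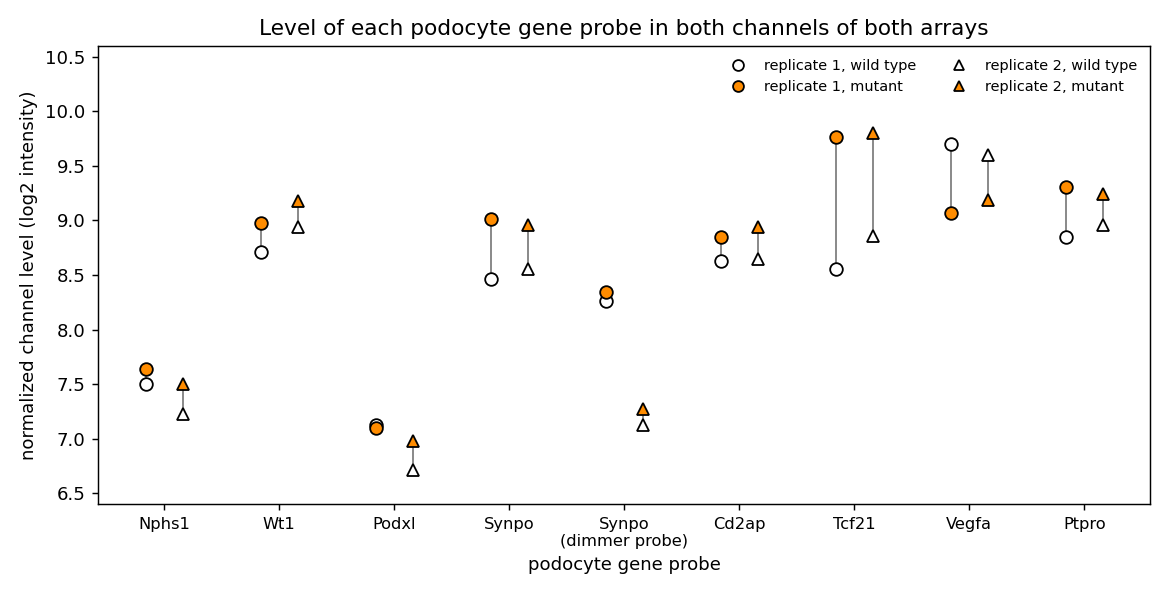
Normalized level (log2 intensity, vertical axis) of each of the 9 podocyte gene probes (horizontal axis) in the wild type channel (white) and the mutant channel (orange) of replicate 1 (circles) and replicate 2 (triangles). Both mutant points lie above both wild type points for Tcf21, Synpo by its brighter probe, Ptpro, Cd2ap and Wt1, and below them for Vegfa; heights of different probes are not comparable.

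Among the genes of the slit diaphragm and its actin link, Synpo had the largest ratio. Synaptopodin is an actin-bundling protein of foot processes. By its brighter probe the net signal was 503 in the mutant and 288 in the wild type channel on replicate 1, and 435 and 355 on replicate 2. The mutant channel was higher on both arrays, with log2 ratios of 0.55 and 0.40 and a mean of 0.48 ± 0.11 (moderated SE, n = 2). limma's adjusted p was 0.0520, just outside the threshold, and Synpo was called higher in 4 of 12 alternatives, with adjusted p from 2.31e-05 to 0.244. The dimmer Synpo probe gave 0.08 and 0.15 (mean 0.11, adjusted p = 0.671 in limma's fit over probes). Its net signals were 301 and 241 on replicate 1 but 90.2 and 122 on replicate 2. The larger ratio was seen with 1 of the 2 probes on both arrays, including replicate 1, where the dimmer probe gave 0.08 against 0.55. With both probes averaged the Synpo mean was 0.30 (adjusted p = 0.203 in limma).

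Cd2ap encodes an adaptor that binds nephrin and actin regulators. Its net signals were 441 in the mutant and 328 in the wild type channel on replicate 1, and 427 and 378 on replicate 2. Its log2 ratios were 0.22 and 0.30, with a mean of 0.26 ± 0.11 (moderated SE, n = 2, adjusted p = 0.286 in limma). The groups did not overlap, but the gene was not called in any setting.

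Nphs1, the gene of nephrin, gave low signals. Its net signals were 175 in the mutant and 119 in the wild type channel on replicate 1, and 115 and 133 on replicate 2. The wild type signal of 133, in Cy3, was within 2.6 SD of the mean of the negative control spots (68.9, SD 58.2). On replicate 2 the mutant RNA was in Cy5, the dye with the lower median signal over background on both arrays, and the log2 ratio after loess normalization was 0.27, against 0.13 on replicate 1. The mean was 0.20 ± 0.11 (moderated SE, n = 2, adjusted p = 0.412 in limma), with an interval from -0.05 to 0.46. The normalized levels of the 2 groups overlapped. As a plain ratio that interval runs from 0.966 to 1.37 and includes no difference. It does not give the smallest difference that 2 arrays could detect, since Synpo at 1.39-fold was not called either.

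The surface proteins are described last. Ptpro encodes GLEPP1, a receptor phosphatase of the podocyte's free surface. Its net signals were 620 in the mutant and 392 in the wild type channel on replicate 1, and 542 and 478 on replicate 2. The mutant channel was brighter on both arrays, with log2 ratios of 0.46 and 0.28 and a mean of 0.37 ± 0.11 (moderated SE, n = 2, adjusted p = 0.134 in limma). It was called in 1 of 12 alternatives, eBayes with a trended and robust prior. Podxl encodes podocalyxin. Its net signals were 110 in the mutant and 78.7 in the wild type channel on replicate 1, and 67.6 and 80.8 on replicate 2. On replicate 1 negative control spots had mean net signals of 13.1 (SD 4.85) in Cy3, the mutant channel, and 3.54 (SD 1.66) in Cy5, well below Podxl. On replicate 2 they had 68.9 (SD 58.2) in Cy3, the wild type channel, and 21.6 (SD 20.5) in Cy5, the mutant channel. The wild type value of Podxl there was within the spread of these controls, and its mutant value was within 2.6 SD of their mean. Podxl was also the one gene whose ratios differed in sign, at -0.028 and 0.27 (mean 0.12 ± 0.12, moderated SE, n = 2, adjusted p = 0.681 in limma). It was left out by a stricter floor set from the negative controls.

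The 8 genes therefore ran from -0.53 to 1.08 on the log2 scale. At an unadjusted p under 0.05, 6 of the 8 passed, 5 of them higher (Tcf21, Synpo, Ptpro, Cd2ap and Wt1) and 1 lower (Vegfa). Among all genes 16.4% passed at that level, 10.1% higher and 6.31% lower. Mutant and wild type levels did not overlap, with the mutant higher, for those same 5 genes, against 15.9% of all genes. They did not overlap with the mutant lower for Vegfa, against 11.2% of all genes. No test was made over the 8 genes together.

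**Figure D3:**
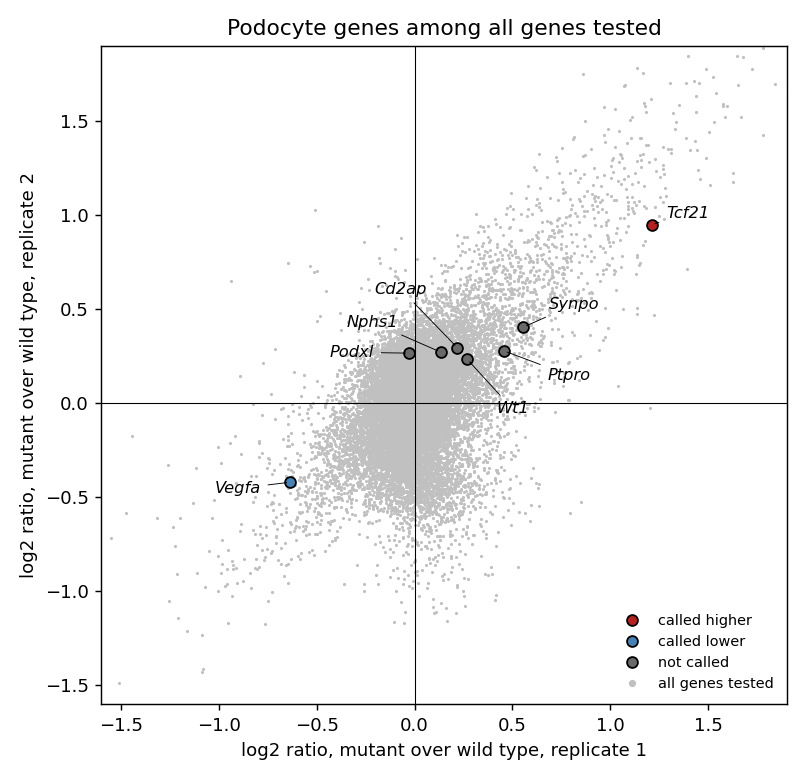
Log2 ratio of mutant over wild type on replicate 1 (horizontal axis) against replicate 2 (vertical axis) for all 18357 genes tested (grey, 26 of them outside the axes) and the 8 podocyte genes (coloured by call). Tcf21 lies at the upper right and Vegfa at the lower left, outside the dense part of the cloud, and the other 6 lie at its upper edge or within it.

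Other genes of the podocyte's filter were read from further lists. Of 38 listed genes of the slit diaphragm and podocyte cytoskeleton, 32 were tested, of which 1 rose, 0 fell and 31 were not called. The called gene was Cd151, a tetraspanin that binds laminin-receptor integrins, at 0.48 ± 0.11 (moderated SE, n = 2, adjusted p = 0.0479 in limma). The list median was 0.13, with 0.05 and 0.19 on the 2 arrays, and 5.01% of all genes were called in either direction. Kirrel and Kirrel2, relatives of nephrin, were not well above background. Of 11 transcription factors of podocytes and their partners, 0 were called and 3 passed an unadjusted p under 0.05, against 16.4% of all genes. The largest means were those of the forkhead genes Foxd1 (0.36, with 0.09 and 0.64 on the 2 arrays) and Foxc1 (0.31). None of the 11 was below 0 on both arrays, and their median was 0.16. The 8 podocyte genes and both of these lists thus had medians above that of all genes. This was not particular to podocyte genes, since most other lists read below did too. The exceptions were the tubule list (-0.40) and the hypoxia list, whose median of 0.01 equalled that of all genes when rounded. The medians were 0.41 for mesangial and juxtaglomerular, 0.39 for parietal epithelial and 0.18 for glomerular endothelial markers.

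For the basement membrane that podocytes share with the endothelium, 1 of 9 tested genes rose and 0 fell, with a median of 0.09. By the same rule 3.79% of all genes rose and 1.21% fell. Nid1, the linker protein nidogen, rose by 1.11 on the log2 scale (adjusted p = 0.00165 in limma). Among sialomucins and relatives of synaptopodin, 1 of 4 rose, the podocalyxin relative Cd34 (0.64, adjusted p = 0.0160 in limma). Among 4 receptor phosphatases of the Ptpro class, 1 rose, the endothelial Ptprb (0.70, adjusted p = 0.0112 in limma), although its other probe gave -0.25.

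The relatives and receptors of Vegfa were read as a separate list. Of 13 ligands, receptors and angiopoietins, 0 were called and 2 passed an unadjusted p under 0.05, against 16.4% of all genes. The list median was 0.06. The largest means were those of the lymphatic growth factors Vegfd (0.53, with 0.37 and 0.69 on the 2 arrays, adjusted p = 0.0508 in limma) and Vegfc (0.36, adjusted p = 0.193), both opposite in sign to Vegfa. The Vegfa receptors Kdr (0.01) and Flt1 (-0.21), named after their values were seen, were not called. Of 14 genes that low oxygen induces, as it does Vegfa, 1 fell and 0 rose, against 1.21% and 3.79% of all genes. The list median was 0.01. The gene that fell was Ndrg1, at -0.55 ± 0.11 (moderated SE, n = 2, adjusted p = 0.0277 in limma).

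Markers of other cell types were read beside these ratios, and beside the shares of all genes called, 3.79% higher and 1.21% lower. Of 8 tested fibroblast and stroma markers 7 rose and 0 fell, with a median of 1.38. The collagen genes Col3a1 (1.97), Col1a2 (1.96) and Col1a1 (1.46) and the proteoglycan gene Lum (1.60) led them. Their summed normalized signal was 8782 and 9785 in the mutant channels against 2776 and 2765 in the wild type channels, and Meis1 was the one marker not well above background, while Dcn had an outlier flag. Of 9 adipocyte markers 7 rose, led by Cfd, Car3, Adipoq and Cidec at 2.10 to 3.17, and 1 fell, the lipase gene Lpl (-0.90), which is named after its value was seen. Their summed signal was 39507 and 40613 against 17579 and 19821, with no marker below background. Of 10 macrophage markers 7 rose and 0 fell, with summed signals of 13386 and 14918 against 5179 and 5790, and none below background. The part of these cells in the Tcf21 ratio was not tested. Of 7 mesothelial markers, cells that also express Wt1, 0 were called and 1 passed an unadjusted p under 0.05, against 16.4% of all genes. Their summed signal was 1266 and 1094 against 1255 and 1091. The largest were Msln (0.39, adjusted p = 0.127 in limma) and Gpm6a (-0.21).

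Of 9 tubule markers 2 fell, Egf (-0.96) and the phosphate transporter gene Slc34a1 (-0.61), and 0 rose. By the same rule 1.21% of all genes fell and 3.79% rose. The list covered the proximal tubule, the thick ascending limb and, by Slc12a3, the distal tubule, and its median was -0.40. The summed signal of the list was 119010 and 128433 in the mutant channels against 143665 and 154238 in the wild type channels. Its brightest gene, Umod, had a mean log2 ratio of 0.01 at a mean log2 intensity of 15.99. That intensity is near the top of the scanner's range, where a ratio can be drawn towards 0. The ratio therefore does not show whether Umod changed, and the summed signal, which includes Umod, shares this limit. Slc12a1 was the one marker not well above background. The part of tubules in the Vegfa ratio was not tested.

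The other cells of the glomerulus also had called members, to be read against 3.79% of all genes called higher and 1.21% lower. Of 8 mesangial and juxtaglomerular markers 4 rose and 1 fell, with a median of 0.41 and summed signals of 4922 and 5890 against 4605 and 5063. Pdgfra (1.21), which fibroblasts also express, Serpine2 (0.93) and Pdgfrb (0.68) rose, and the renin gene Ren1 (-0.60) fell. Of 12 glomerular endothelial markers 2 rose, Ramp2 (0.71) and Cd34, and 0 fell, with a median of 0.18 and summed signals of 15091 and 18075 against 12875 and 14550. Of 6 parietal epithelial markers 3 rose and 0 fell: Krt18 (0.995), Cd24a (0.57) and Krt8 (0.51), which tubules also express. The summed signal of this list was 7316 and 7999 against 4758 and 5120. For comparison, the 8 podocyte genes summed to 3860 and 3954 against 3158 and 3261. No marker of these lists was below background, and their part in the podocyte gene ratios was not tested.

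**Figure D4:**
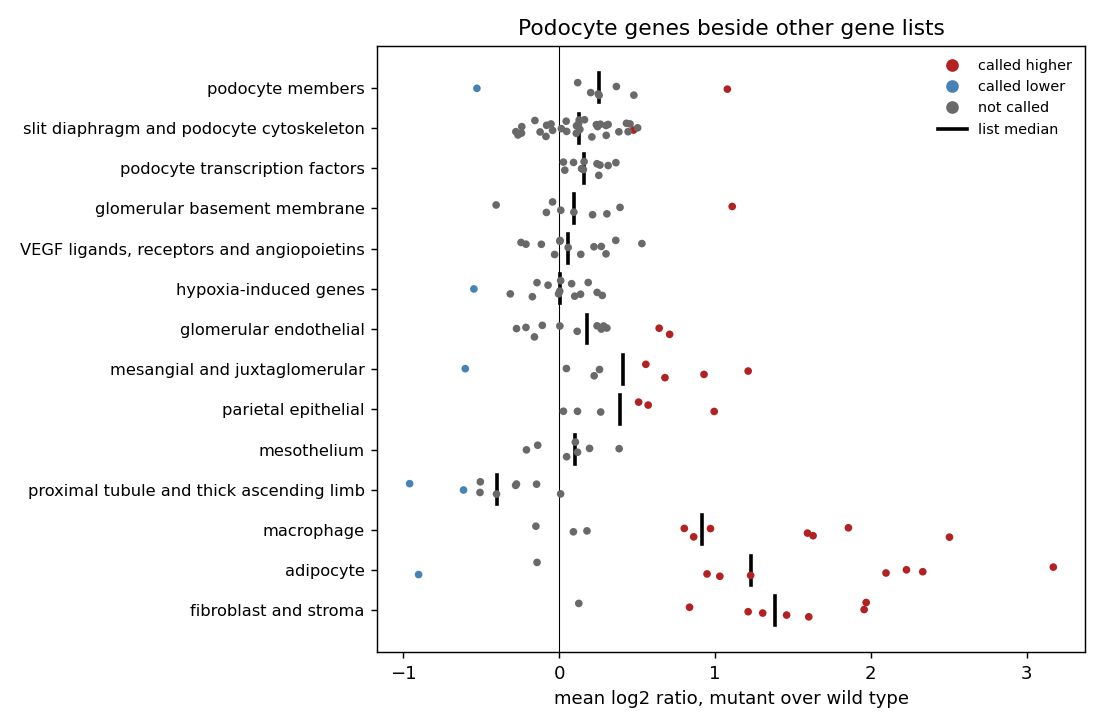
Mean log2 ratio of mutant over wild type (horizontal axis) of each tested gene in the podocyte group and in 13 other gene lists (vertical axis), coloured by call, with a black bar at each list's median. The podocyte genes have a median of 0.25 with Tcf21 and Vegfa at the ends, while the fibroblast and stroma list has a median of 1.38 and the tubule list one of -0.40.

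Under the other ways of processing, 7 of the 8 genes kept the sign of their mean in every setting. These settings are not independent. Several change only the test or the filter and leave the ratio of a gene with 1 probe as reported. The deposited value table repeats the scanner's ratio, and leaving out a replicate gives back the ratio of the other array. The exception was Podxl, at -0.028 on replicate 1 alone. Tcf21 stayed between 0.95 and 1.21 and was called in 10 of 12 settings with a test. Wt1 (0.23 to 0.29), Cd2ap (0.22 to 0.30), Nphs1 (0.12 to 0.29) and Podxl were called in none. The lowest adjusted p of Wt1 over the alternatives was 0.0529 and that of Cd2ap was 0.0631 in limma.

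**Figure D5:**
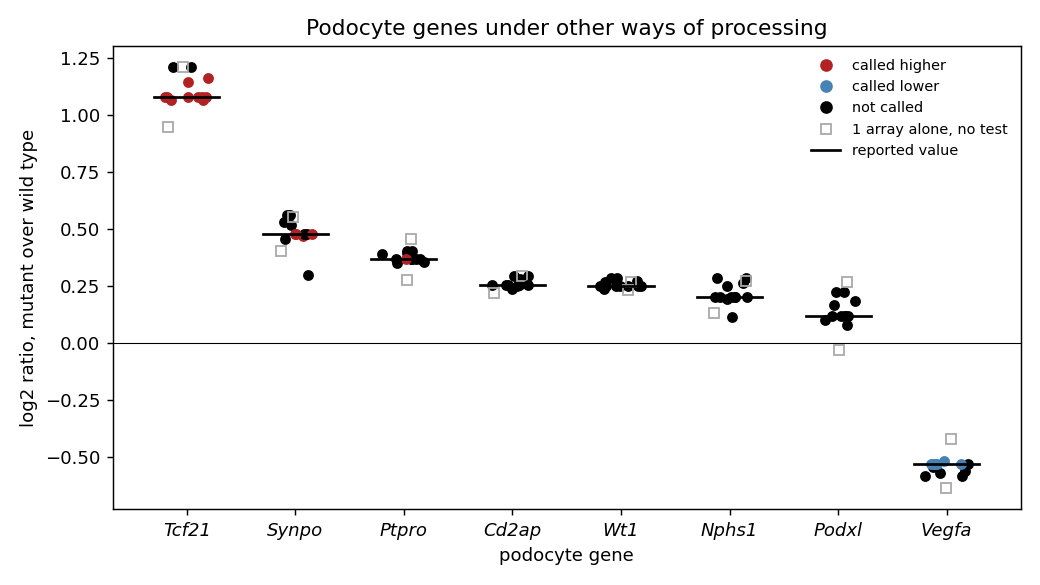
Log2 ratio of mutant over wild type (vertical axis) of the 8 podocyte genes (horizontal axis) under each alternative way of processing, as filled points coloured by call, with open squares for 1 array alone, which has no test, and a black bar at the reported value. Tcf21 stays between 0.95 and 1.21, and the called and not called points of Vegfa and Synpo lie side by side.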

How the data were processed

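Per the file headers, Agilent Feature Extraction 8.1.1.1 gave for every spot a mean intensity and a local background intensity in Cy3 and Cy5, a log10 ratio of Cy5 over Cy3 after its own background subtraction, detrending and dye normalization, and the p-value of that ratio from its own error model. The value table that the authors deposited held those log10 ratios with opposite sign for all 22393 features (largest difference 0, median of both columns 0), so its scale, centring and direction are known. Per the labels, 500 ng of RNA was amplified and 750 ng of cRNA per dye was hybridised over 17 hours.

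In R 4.3.3 with limma 3.58.1, mean signals were background-corrected with normexp (offset 50) and normalized by loess within arrays, with control spots at weight 0, and the ratio of replicate 1 was turned to read mutant over wild type. The offset draws ratios of dim spots towards 0. After removal of 88 spots flagged as outliers, 20024 spots were kept because one genotype was well above background on both arrays. Repeat spots were averaged and the brightest probe represented its gene. lmFit and eBayes tested 18357 genes (1 residual and 6.58 prior degrees of freedom), with Benjamini-Hochberg adjustment. Each array is its own slide and scan with both genotypes, so each array's value is a value within 1 slide; slide, scan and dye orientation cannot be told apart. Probes were named by accession, current symbol or unambiguous older symbol from RefSeq's GRCm38.p6 table (19041 of 21318 spots). The steps were run on simulated data drawn from the fitted model with equal noise on both arrays. That run checks the code and does not bear on the calls reported here. No gene was chosen for likeness of pattern, since 2 arrays give only 2 values a gene. Named genes are the 8 members, up to 4 called genes of each other list by size or, where none was called, up to 2; Lpl, Kdr, Flt1 and the genes named as dim or flagged were added after their values were seen. The members and lists were chosen with earlier results of these data known, so no p-value was adjusted over a list and no list was tested.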

Additional observations from a re-analysis of the deposited data

How the results depend on the processing

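No further paired analysis was possible because each array holds both genotypes, so the pairing is already in the ratio that was tested. Against 1 podocyte gene called higher and 1 lower, 0 and 0 were called with the scanner's own log ratio and with the deposited value table, 2 higher with no background correction, 2 higher when every channel had to exceed background, 3 higher with a trended, robust prior, and 2 higher with a floor at 2.6 SD over the negative controls, an alternative chosen after seeing the data. 0 were called lower with plain subtraction, offset 16, median centring or no filter on dim spots. Over all genes, against 696 higher and 223 lower, the counts were 204 and 24 with plain subtraction, 302 and 56 at offset 16, 235 and 48 after median centring, 0 and 0 with the scanner's ratio or the value table (2521 at an unadjusted p under 0.05), 1540 and 932 with the trended prior, and 340 lower with the control floor. The median of the 8 genes was 0.28 with plain subtraction and 0.29 with the scanner's ratio or value table, and 0.24 to 0.28 without one replicate. Podxl ran from -0.028 without replicate 2 to 0.27 without replicate 1. The causes were not tested. On replicate 2 the Cy3 signals of Podxl, Nphs1 and the dimmer Synpo probe were within 2.6 SD of the mean of the negative controls. The Cy5 signal of Podxl, the mutant channel there, was too.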
